A study of Mus musculus with 6 samples.

Results

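The genes described here are 7 genes of the vestibular and endolymphatic epithelia of the inner ear, taken by name from a count table of 55401 genes. They are Oc90 and Otol1, which encode proteins of the otoconial matrix, Otop1, Nox3, Noxo1 and Cyba, which are needed for otoconia to form, and Slc26a4, which encodes pendrin. All 7 were present in the table, and all 7 passed the filter on low counts that left 19687 genes for testing. Transcripts were measured by bulk RNA sequencing of mouse inner ear as 3 wild-type (WT) libraries and 3 libraries of mice mutant for the X-linked transcription factor gene Pou3f4 (Pou3f4 KO, genotype written Pou3f4y/-). By its labels the material held all the cells of the inner ear, although a further label calls them interstitial cells. No strain, age, sex or treatment agent is named, and nothing says which part of Pou3f4 the mutant allele lacks or whether each library came from a separate animal. The study made the comparison to look for a mechanism behind pigmentation of the mutant ear.

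Otoconia are calcium carbonate crystals on a protein matrix that load the hair bundles of the utricle and saccule and so let these organs sense gravity and linear acceleration. Otoconin-90, the product of Oc90, is the main protein of the matrix, and otolin, the product of Otol1, is a collagen-like scaffold protein that binds it. Crystals do not form in mice without the proton channel otopetrin 1 (Otop1) or without the vestibular NADPH oxidase, an enzyme made of the catalytic subunit NOX3, its membrane partner p22phox (Cyba) and the organiser NOXO1. Pendrin, an exchanger of chloride, iodide and bicarbonate, is made in the endolymphatic sac, in non-sensory cells of the vestibular organs and in the outer sulcus of the cochlea, and its loss in mice enlarges the endolymphatic spaces and gives abnormal otoconia.

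The 7 genes lie on 6 chromosomes of the mm10 build, and all are protein coding. Oc90 (ENSMUSG00000015001) spans chr15:65876053-65912397 on the minus strand, Otol1 (ENSMUSG00000027788) chr3:70007613-70028708 on the plus strand and Otop1 (ENSMUSG00000051596) chr5:38275972-38304217 on the plus strand. Nox3 (ENSMUSG00000023802) spans chr17:3635240-3696261 on the minus strand, Noxo1 (ENSMUSG00000019320) chr17:24696234-24700529 on the plus strand and Cyba (ENSMUSG00000006519) chr8:122424776-122432930 on the minus strand. Slc26a4 (ENSMUSG00000020651) spans chr12:31519827-31559969 on the minus strand. By GENCODE M21, an annotation of this build, exons of 6 of the genes overlapped no exon of another gene. Exons of Noxo1 overlapped Tbl3 on the opposite strand over 70.4% of their merged length of 3013 bases. Reads of Noxo1 and Tbl3 cannot be told apart unless they were counted by strand, which the sources used here do not say, so every Noxo1 value below is uncertain.

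RefSeq (GRCm38.p6) gave promoter windows for 6 of the 7 genes, all but Oc90, and the 250 bases before the annotated start were searched on both strands for the octamer ATGCAAAT, the classical site of POU-domain factors, for its shorter form ATGCAAA, which lies within every octamer match, and for TATAAA, the TATA box. The windows of Otol1, Nox3 and Slc26a4 are shown because they hold the matches, in capitals, and that of Otop1 because its transcript had the largest fitted difference between the genotypes. The starts are those of RefSeq. The Otop1 window lies inside the span given above for that gene, so it is not upstream of the start of the counted gene.
Otol1, chr3:70007363-70007612, plus strand: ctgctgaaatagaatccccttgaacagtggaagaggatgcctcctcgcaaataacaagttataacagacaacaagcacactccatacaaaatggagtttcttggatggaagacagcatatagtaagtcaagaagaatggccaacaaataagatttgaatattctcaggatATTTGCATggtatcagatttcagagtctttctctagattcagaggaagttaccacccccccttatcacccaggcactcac
Nox3, chr17:3696262-3696511, minus strand: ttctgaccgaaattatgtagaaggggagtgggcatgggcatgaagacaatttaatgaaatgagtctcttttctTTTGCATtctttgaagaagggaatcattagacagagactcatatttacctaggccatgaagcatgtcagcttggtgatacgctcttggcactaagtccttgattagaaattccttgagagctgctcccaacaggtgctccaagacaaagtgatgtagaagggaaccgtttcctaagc
Otop1, chr5:38277154-38277403, plus strand: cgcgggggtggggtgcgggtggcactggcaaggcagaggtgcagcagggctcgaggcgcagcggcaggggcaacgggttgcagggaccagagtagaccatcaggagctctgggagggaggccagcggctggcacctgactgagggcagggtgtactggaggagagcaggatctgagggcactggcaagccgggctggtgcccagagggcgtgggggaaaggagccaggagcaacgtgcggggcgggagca
Slc26a4, chr12:31559985-31560234, minus strand: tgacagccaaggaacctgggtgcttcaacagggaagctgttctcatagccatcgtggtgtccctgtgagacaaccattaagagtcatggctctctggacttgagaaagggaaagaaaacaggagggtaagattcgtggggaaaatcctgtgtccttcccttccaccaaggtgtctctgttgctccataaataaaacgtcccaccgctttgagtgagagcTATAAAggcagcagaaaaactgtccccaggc
The window of Otol1 held the full octamer in reverse orientation (ATTTGCAT), with its first base 80 bases before the start, as did 1.6% of 32817 promoter windows of the same length. The window of Nox3 held only the shorter form in reverse orientation (TTTGCAT), 177 bases before the start, and 4.13% of all windows held the shorter form, those with the full octamer included. TATAAA was found in the window of Slc26a4, 31 bases before the start, and 12.4% of all windows had a match. In base composition the windows ranged from 37 CpG and 80% GC for Noxo1 and 13 CpG and 70% GC for Otop1 to 1 CpG and 41.2% GC for Otol1 and 3 CpG and 42.8% GC for Nox3, against medians of 6 CpG and 52.4% GC. A match is a description of the letters and no evidence of binding.

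Library totals ranged from 18409409 to 23323953 counts, and Pou3f4 held 1044 to 2233 counts in the WT libraries and 28 to 45 in the KO libraries. Counts of the 7 genes ran from 48, for Otop1 in KO replicate 2, to 1563, for Oc90 in the same library. Xist reads were present in WT replicates 1 and 2 and KO replicates 2 and 3 and nearly absent (6 and 1 counts) from WT replicate 3 and KO replicate 1, so each genotype held libraries of both kinds. A genotype written y/- is that of males, and for KO replicates 2 and 3 the Xist reads go against it. WT replicate 1 stood apart from the other WT libraries on some of the marker lists. Its summed level of 10 hair cell markers was 81.2 CPM (counts relative to the TMM-scaled library size) against 203 and 160 CPM in WT replicates 2 and 3 and 118 to 129 CPM in KO. Its 9 neutrophil markers summed to 198 CPM against 828 to 1179 CPM in the other 5 libraries, and its 6 strial marginal and vestibular dark cell markers to 348 CPM against 392 to 546 CPM. None of these markers was at 0 in any library. The 6 macrophage markers summed to 421 to 522 CPM in WT and 685 to 743 CPM in KO. The 6 skeletal muscle markers summed to 3988, 74.8 and 6772 CPM in WT replicates 1 to 3 and 13.7 to 534 CPM in KO. There WT replicate 2 was the lowest of the WT libraries. The 5 erythroid markers summed to 1961, 7135 and 6252 CPM in WT replicates 1 to 3 and 1861 to 2903 CPM in KO. There WT replicates 2 and 3 were above all other libraries. Fewer cells of a type and less RNA per cell cannot be told apart in such samples. For these reasons each member is given below with and without WT replicate 1.

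**Figure D1:**
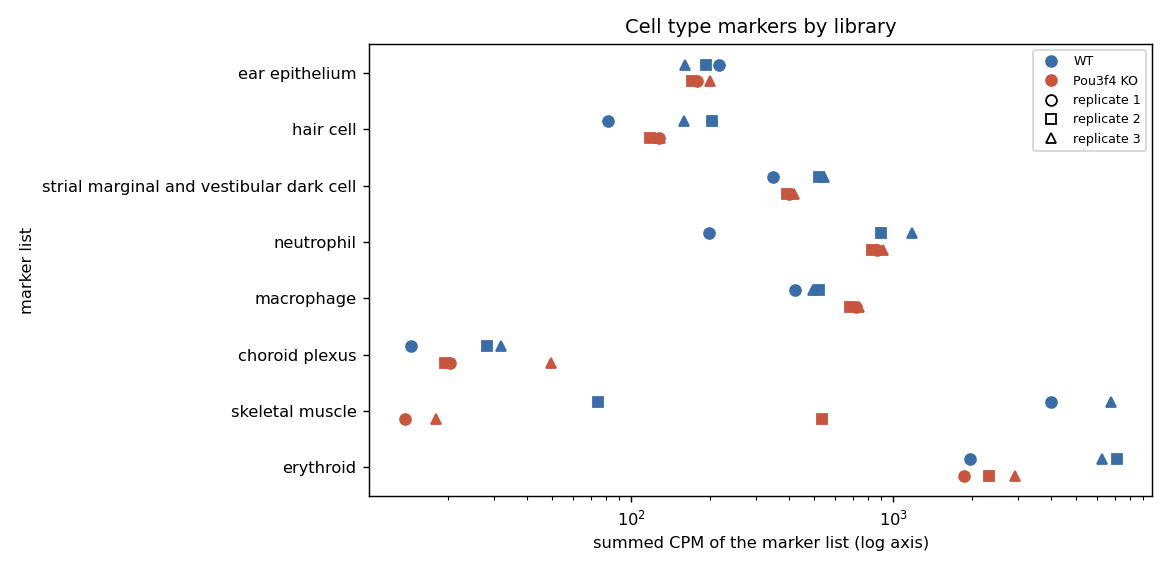
Summed CPM (log axis) of each fixed marker list in the 6 libraries, with WT above and Pou3f4 KO below in each row and the replicate shown by the marker shape. WT replicate 1 has the lowest hair cell, neutrophil and dark cell sums of all libraries, at 81.2, 198 and 348 CPM.

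None of the 7 genes passed the threshold of an adjusted p of 0.05 between the genotypes in edgeR's quasi-likelihood test with Benjamini-Hochberg adjustment over all 19687 genes, of which 0.396% passed, 0.213% higher and 0.183% lower in KO. Adjusted p-values of the 7 ran from 0.178 to 0.883. At an unadjusted p under 0.05 there were 5 of the 7, against 19.6% of all genes, namely Oc90, Otop1, Nox3, Noxo1 and, just under that limit, Slc26a4. The libraries of the genotypes did not overlap for 4 of the 7, with Oc90 and Nox3 higher and Otop1 and Noxo1 lower in KO. Of all genes tested, 27.7% did not overlap, 15% with KO higher and 12.7% with KO lower. The 7 genes were chosen with earlier results of these data known, so setting their counts against these shares is no test. DESeq2, an alternative that called 8.14% of all genes (3.25% higher, 4.89% lower), called Otop1 lower (adjusted p = 0.0247) and Nox3 higher (adjusted p = 0.0494). The Nox3 call rested on a setting of that tool, since with its default target for filtering genes, an alternative chosen after the data were seen and calling 8.11% of all genes, the adjusted p was 0.0502. The median log2 fold change of the 7 genes was 0.10 and that of all genes tested −0.01, with 4 of the 7 above 0 and 3 below.

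**Figure D2:**
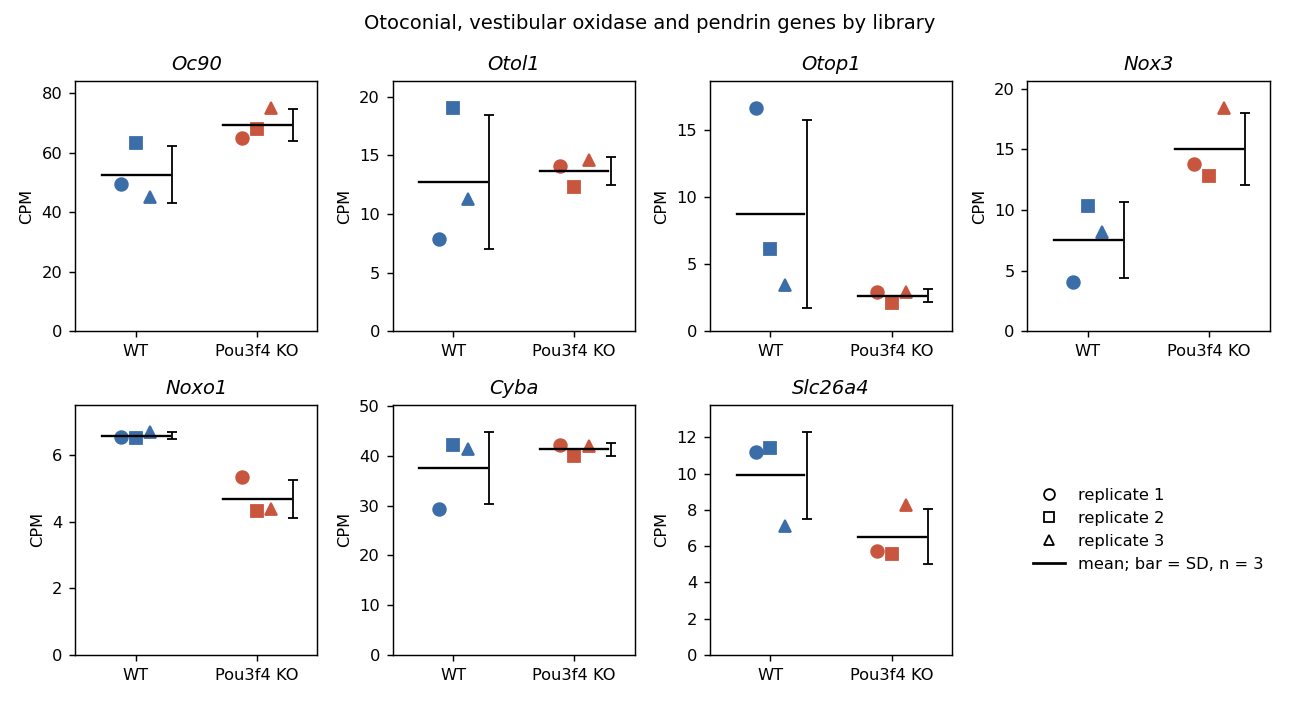
CPM of each gene in each library, with the replicate shown by the marker shape, the mean as a line and the SD over 3 libraries as a bar. Every KO library lies above every WT library for Oc90 and Nox3 and below for Otop1 and Noxo1, and WT replicate 1 is the highest point for Otop1 (16.7 CPM) and the lowest for Nox3 (4.07 CPM).

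Of the matrix proteins, Oc90 was by far the more abundant transcript with every KO library above every WT library, while Otol1 overlapped between the genotypes. Oc90 stood at 49.7, 63.3 and 45.1 CPM in WT replicates 1 to 3 and at 64.9, 68.0 and 75.1 CPM in KO replicates 1 to 3. The groups did not overlap, but the highest WT and lowest KO libraries nearly touched. The group means were 52.7 ± 9.47 and 69.3 ± 5.27 CPM (SD over 3 libraries each), and the log2 fold change was 0.40 (SE 0.14, 95% interval 0.07 to 0.72, adjusted p = 0.193, edgeR). Oc90 passed the threshold without WT replicate 2 (0.55, adjusted p = 0.0475, edgeR), where 3.78% of all genes passed and 1.41% were higher. Its log2 fold change was 0.34 when WT replicate 1 was left out (adjusted p = 0.171).

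Otol1 stood at 7.86, 19.0 and 11.3 CPM in WT and at 14.1, 12.3 and 14.6 CPM in KO. All 3 KO libraries lay inside the WT range, whose ends were WT replicate 1 and WT replicate 2. The log2 fold change was 0.10 (SE 0.31, 95% interval −0.64 to 0.84, adjusted p = 0.883, edgeR), so a change of moderate size in either direction was not detectable. It was −0.16 without WT replicate 1 and 0.51 without WT replicate 2, so its sign rested on single WT libraries. Per kilobase of merged exons, Oc90 was 5.14 ± 1.77 times as abundant as Otol1 in WT and 5.75 ± 0.529 times in KO (SD, n = 3 each). The difference in this ratio had p = 0.5 in a two-sided exact permutation test, for which the smallest possible p is 0.1.

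Other genes of otoconia and of the gels above the sensory epithelia were read from a list of 10. None passed the threshold with edgeR, 3 had an unadjusted p under 0.05, and 6 had log2 fold changes above 0, with a median of 0.05. Sparc, which encodes a calcium-binding matrix protein also made in quantity by bone and mesenchyme, stood at 9071, 8967 and 8595 CPM in WT and at 12785, 12435 and 12452 CPM in KO. Its log2 fold change was 0.50 (SE 0.08, adjusted p = 0.0599, edgeR). Its adjusted p was 0.00637 when WT replicate 1 was left out, 0.0417 when WT replicate 2 was, 1e-10 with DESeq2 and 0.0452 when genes needed 1 CPM in 3 libraries, a filter under which 0.475% of all genes passed. It was 0.136 without WT replicate 3, 0.319 to 0.415 without any one KO library, 0.227 with a replicate block and 0.161 with a term for Xist reads, and the log2 fold change was 0.48 or more in all of these. Its relative Sparcl1, a calcium-binding glycoprotein found in otoconia, pointed the other way, at 799, 1120 and 1276 CPM in WT and 732, 722 and 699 CPM in KO, and its log2 fold change of −0.57 (SE 0.17) had an adjusted p of 0.165 with edgeR, against 0.0268 with DESeq2 and 0.00916 without WT replicate 1. Neither pair of groups overlapped. Of all genes, 8.14% passed with DESeq2, 9.06% without WT replicate 1 and 3.78% without WT replicate 2. Dmp1, a matrix protein of bone also found in otoconia, averaged 1428 ± 403 CPM in the WT libraries and 1711 ± 47.6 CPM in the KO libraries, which overlapped. The gel proteins otogelin, Otog, at 57.4 ± 26.9 and 60.4 ± 10.2 CPM, and otoancorin, Otoa, at 37.0 ± 16.9 and 34.5 ± 6.74 CPM, were lowest of all libraries in WT replicate 1 (28.9 and 19.3 CPM). Sparc and Dmp1 are named for their levels and the other 3 after their values were seen, and none of the 5 passed the threshold with edgeR on all libraries under the filter used throughout.

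Otop1 had the largest fitted difference of the 7 genes and the widest spread in WT. It stood at 16.7, 6.14 and 3.45 CPM in WT, from 299, 118 and 68 counts, and at 2.91, 2.09 and 2.92 CPM in KO, from 67, 48 and 54 counts. Every KO library was below every WT library, but WT replicate 3 lay closer to the KO libraries than to WT replicate 1. The means were 8.75 ± 6.99 and 2.64 ± 0.476 CPM, a log2 fold change of −1.73 (SE 0.57, 95% interval −3.08 to −0.37, adjusted p = 0.181, edgeR). Without WT replicate 1 it was −0.87 (adjusted p = 0.11), and without WT replicate 3 it was −2.11 (adjusted p = 0.177).

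Of 6 ear epithelium markers, 4 were also highest in WT replicate 1. Esrp1, a splicing regulator of epithelia, stood at 26.8 CPM there against 7.86 and 8.42 CPM in the other WT libraries and 5.31 to 7.07 CPM in KO, and keratin 8, Krt8, at 17.4 CPM against 8.01 and 8.73 CPM and 6.09 to 8.42 CPM. The others went the opposite way, since the claudin Cldn6 was lowest of all libraries in WT replicate 1 (0.669 CPM against 1.07 to 2.30 CPM) and the adhesion molecule Epcam was lower there (53.7 CPM) than in any KO library (66.6 to 74.4 CPM). The 6 markers, none of which was at 0 in any library, summed to 161 to 217 CPM in WT and 171 to 200 CPM in KO. Their part in the Otop1 difference was not tested. The other otopetrins, Otop2 and Otop3, did not reach the filter on low counts. WT replicate 1 held 4 and 14 counts of them, and no other library held more than 3 counts of either.

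The 3 subunits of the vestibular oxidase differed in the sign and size of their fitted values, none of which passed the threshold. Nox3 stood at 4.07, 10.3 and 8.17 CPM in WT and at 13.8, 12.8 and 18.4 CPM in KO. The lowest KO library, replicate 2, was above the highest WT library, replicate 2, and WT replicate 1 was the lowest of all. The means were 7.51 ± 3.17 and 15 ± 2.99 CPM, a log2 fold change of 0.99 (SE 0.34, 95% interval 0.19 to 1.80, adjusted p = 0.188, edgeR). Without WT replicate 1 it was 0.69 (adjusted p = 0.0792), the lowest value, and without WT replicate 2 it was 1.29 (adjusted p = 0.102), the highest.

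Noxo1 pointed the other way, at 6.52, 6.50 and 6.70 CPM in WT and 5.34, 4.31 and 4.37 CPM in KO. The WT libraries were nearly equal, with a coefficient of variation of 1.64%, and all KO libraries lay below them. Counting error alone gives a larger spread at the WT counts of 117, 125 and 132, so the small spread is not a trait of the gene. The log2 fold change was −0.49 (SE 0.16, 95% interval −0.87 to −0.11, adjusted p = 0.178, edgeR). It was −0.51 without WT replicate 1 (adjusted p = 0.103) and stayed between −0.60 and −0.43 when any single library was left out. Tbl3, the gene that shares exons with it, averaged 29.4 ± 0.995 CPM in the WT libraries and 28.7 ± 0.990 CPM in the KO libraries (−0.04, SE 0.09, adjusted p = 0.848).

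Cyba, whose product also serves the oxidases of phagocytes, stood at 29.3, 42.3 and 41.4 CPM in WT and 42.1, 39.9 and 41.9 CPM in KO. Apart from WT replicate 1, which was the lowest, the libraries of the groups lay together. The log2 fold change was 0.13 (SE 0.15, 95% interval −0.22 to 0.49, adjusted p = 0.648, edgeR) and −0.03 without WT replicate 1. Per kilobase of merged exons, Cyba was 12.4, 7.08 and 8.74 times as abundant as Nox3 in WT and 5.28, 5.37 and 3.93 times in KO. Every KO ratio was below every WT ratio, and the two-sided exact permutation test gave p = 0.1, the smallest that 3 libraries against 3 allow. The ratio of Nox3 to Noxo1 was 1.92 ± 0.815 in WT and 5.47 ± 1.43 in KO, and it carries the doubt about Noxo1 reads. Its p of 0.1 in the same exact test was fixed in advance, since every KO library was higher for Nox3 and lower for Noxo1. These ratios were chosen after the values were seen.

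**Figure D3:**
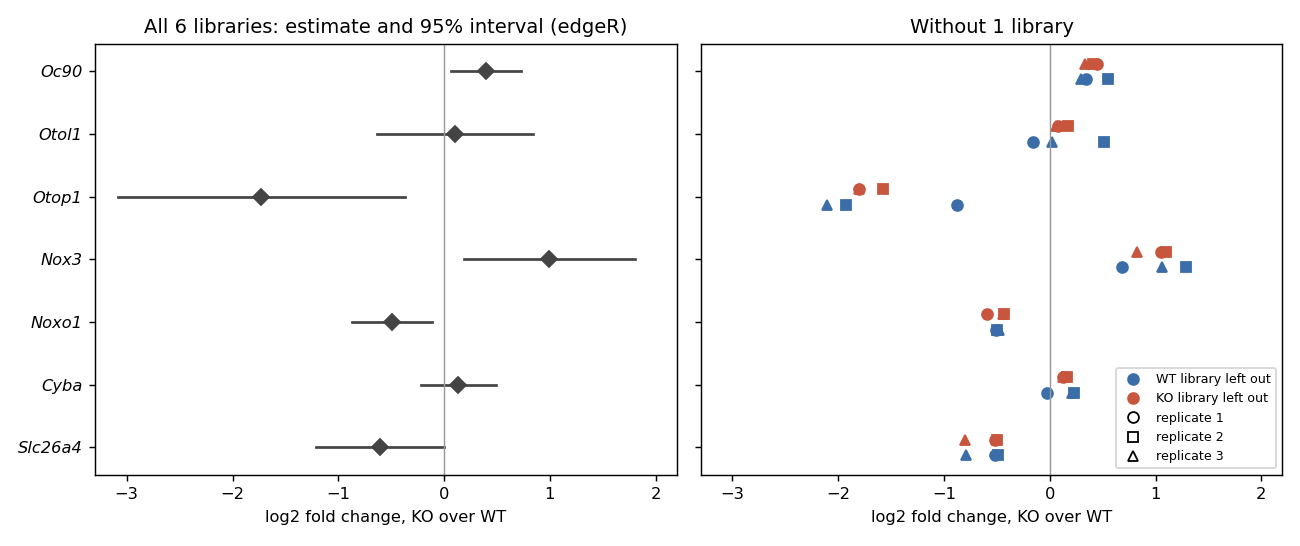
Log2 fold changes (KO over WT) of the 7 genes with all 6 libraries, as diamonds with 95% intervals (left), and with each library left out in turn (right; color gives the genotype and shape the replicate left out). Otop1 moves from −1.73 to −0.87 without WT replicate 1, Otol1 and Cyba change sign there, and Noxo1 stays between −0.60 and −0.43.

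Of 14 other NADPH oxidase genes, 9 were tested and none passed the threshold or had an unadjusted p under 0.05 with edgeR, and DESeq2 called none of them. Their median log2 fold change was 0.19, and 7 of 9 were above 0. Cybb, Ncf1 and Ncf4, subunits of the phagocyte oxidase, the enzyme of neutrophils and macrophages, shared the low level of Nox3 in WT replicate 1. Cybb, the catalytic subunit, stood at 14.8, 39.7 and 44.2 CPM in WT and at 48.7, 46.3 and 53.9 CPM in KO (log2 fold change 0.59, SE 0.37, adjusted p = 0.413). The cytosolic subunit Ncf4 stood at 3.62, 14.2 and 11.2 CPM in WT and 14.6, 16.2 and 16.0 CPM in KO. For both genes and the GTPase Rac2 every KO library was above every WT library, and WT replicate 1 was far below the other 5, while Ncf1, the phagocyte counterpart of Noxo1, overlapped. Of the 6 macrophage markers, 4 also had all KO libraries above all WT libraries, as did 15% of all genes, and 1, the complement gene C1qa, had them all below (32.2 to 32.9 CPM against 34.7 to 35.5 CPM). Their sums are given above, and the part of phagocyte numbers in the Cyba and Cybb values was not tested. Rac1, the GTPase with the highest level of the list, stood at 396 ± 17.6 and 401 ± 12.7 CPM, with 51.4% of its merged exons overlapped by Daglb on the opposite strand. The activator Noxa1 and the dual oxidase genes Duox1, Duox2, Duoxa1 and Duoxa2 did not reach the filter, and Noxa1 held 0 to 6 counts a library.

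Per kilobase of merged exons, Nox3 (4.19 ± 1.77 CPM per kb) and Cybb (5.66 CPM per kb) were of similar level in WT, and in KO they stood at 8.37 ± 1.67 and 8.55 CPM per kb. Their ratio was 0.893, 0.840 and 0.600 in WT and 0.916, 0.898 and 1.11 in KO (p = 0.1, two-sided exact permutation test, the smallest possible). The means of the ratio were 0.778 ± 0.156 and 0.974 ± 0.116, and the highest WT and lowest KO ratios nearly met. Like the other oxidase ratios, this one was chosen after the values were seen.

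**Figure D4:**
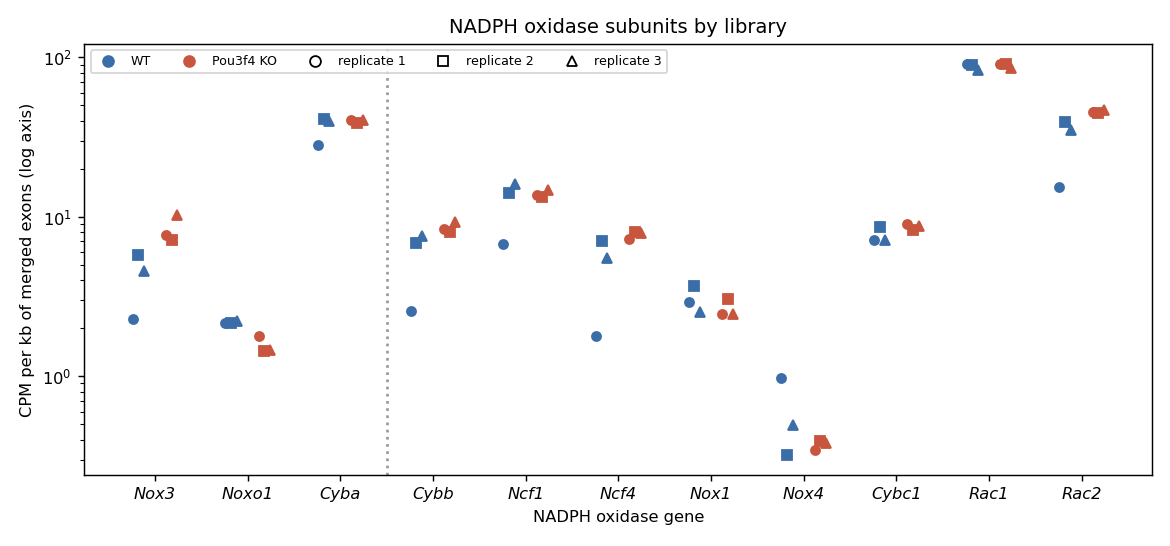
CPM per kilobase of merged exons (log axis) of the vestibular oxidase genes, left of the dotted line, and of 8 of the 9 other NADPH oxidase genes tested, by library. WT replicate 1 lies lowest for Nox3, Cyba, Cybb, Ncf1, Ncf4 and Rac2, and KO lies below WT for Noxo1.

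Slc26a4 stood at 11.2, 11.4 and 7.11 CPM in WT and at 5.73, 5.57 and 8.26 CPM in KO. WT replicate 3 lay below KO replicate 3, so the groups overlapped. The means were 9.90 ± 2.42 and 6.52 ± 1.51 CPM, a log2 fold change of −0.60 (SE 0.25, 95% interval −1.21 to −0.0002, adjusted p = 0.254, edgeR). Leaving out a single library gave −0.80 to −0.49, with −0.52 without WT replicate 1 (adjusted p = 0.242).

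Of the ion transport genes of the endolymphatic sac, Foxi1 and Atp6v1b1, both of its pendrin cells, were near the limit of detection in 5 of the 6 libraries. Foxi1, the transcription factor that switches on pendrin and proton pump genes in those cells, held 19, 0 and 5 counts in WT and 0, 0 and 1 in KO, where a count of 0 allows 0.130 to 0.167 CPM per library as a limit of counting error. Atp6v1b1, a proton pump subunit of the same cells, held 14, 0 and 1 counts in WT and 2, 4 and 0 in KO. WT replicate 1, at 1.06 CPM of Foxi1 and 0.781 CPM of Atp6v1b1, was above that limit for both and also had the most Atp6v0a4, while the other 5 libraries were at or near it. The cells that gave the Slc26a4 reads were not identified. Of the 8 genes listed, 6 were tested, none passed the threshold with edgeR or DESeq2, and all 6 had log2 fold changes below 0 with edgeR on all libraries, with a median of −0.41. Atp6v0a4, another proton pump subunit, had an unadjusted p under 0.05, at 8.75, 4.37 and 4.97 CPM in WT and 3.52, 2.44 and 4.10 CPM in KO (−0.85, SE 0.33, adjusted p = 0.231), and 5.2% of its merged exons overlap D630045J12Rik. The most abundant members were Car2, a carbonic anhydrase also of bone and blood cells, at 348 ± 243 and 306 ± 56.8 CPM, and the potassium channel Kcnj10, of strial intermediate and glial cells, at 79.1 ± 37.4 and 62.1 ± 4.92 CPM. Both passed as lower in KO without WT replicate 1 (Car2 −0.69, adjusted p = 0.0378; Kcnj10 −0.69, adjusted p = 0.0314), where 9.06% of all genes passed and 5.46% were lower. With all libraries their adjusted p was 0.899 and 0.606 (edgeR). The sign of Car2 turned with limma-voom (0.26), with the replicate block (0.21), without WT replicate 2 (0.17) and without WT replicate 3 (0.11). Like the erythroid sums given above, Car2 was highest in WT replicates 2 and 3 (501 and 475 CPM). It stood at 68.0 CPM in WT replicate 1 and at 262 to 370 CPM in KO. The part of blood cells in the Car2 values was not tested.

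Among 10 other members of the SLC26 family of anion transporters, 8 were tested and 1 passed the threshold. Slc26a7, a chloride transporter that the cochlea makes in Reissner's membrane and that thyroid and kidney also make, was 1.81-fold higher in KO. It stood at 32.3, 42.4 and 38.2 CPM in WT and at 64.6, 71.4 and 68.6 CPM in KO, with a wide gap between the groups (log2 fold change 0.86, SE 0.11, adjusted p = 0.049, edgeR), while 0.213% of all genes were called higher. DESeq2 also called it, and its direction held in every alternative, but the adjusted p was 0.145 without WT replicate 3, 0.357 without KO replicate 1, 0.271 without KO replicate 2 and 0.33 without KO replicate 3. It was also 0.145 with a term for Xist reads and 0.209 with the replicate block. The sulfate transporter gene Slc26a2 stood at 43.1 ± 6.77 and 52.0 ± 4.94 CPM (0.27, adjusted p = 0.315), and prestin, Slc26a5, the motor protein of outer hair cells, at 0.486 ± 0.282 and 0.856 ± 0.241 CPM. The median over the 8 genes was 0.28. None of 7 transcription factors that pattern the ear, Dlx5, Dlx6, Gbx2, Hmx2, Hmx3, Otx1 and Otx2, passed the threshold. Of these, 2 had an unadjusted p under 0.05 (edgeR), and 5 had log2 fold changes below 0. The median was −0.29, the value of Otx2 itself, and that of Otx1 was −0.50. Dlx5 stood at 53.5 ± 7.33 and 53.4 ± 5.36 CPM and Dlx6, with 4.4% of its exons overlapped by Dlx6os2, at 13.7 ± 1.36 and 10.8 ± 0.754 CPM. Hmx2 and Hmx3, which the vestibular organs need, were detected at 1.69 ± 0.458 and 2.39 ± 0.173 CPM and at 2.17 ± 0.822 and 2.53 ± 0.456 CPM.

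Ordered by level per kilobase of merged exons in WT, the 7 genes ran Cyba (36.2 ± 7.0 CPM per kb), Oc90 (27.6 ± 4.95), Otol1 (5.89 ± 2.65), Nox3 (4.19 ± 1.77), Slc26a4 (3.19 ± 0.780), Otop1 (2.54 ± 2.03) and Noxo1 (2.18 ± 0.0357). Neighbours in that order overlapped between libraries except Oc90 and Otol1. In KO the order was Cyba (39.8 ± 1.18 CPM per kb), Oc90 (36.3 ± 2.76), Nox3 (8.37 ± 1.67), Otol1 (6.32 ± 0.555), Slc26a4 (2.10 ± 0.485), Noxo1 (1.55 ± 0.193) and Otop1 (0.766 ± 0.138). There the only neighbours to overlap were Cyba and Oc90, and Slc26a4 and Noxo1 were set apart by only 1.79 against 1.77 CPM per kb in their nearest libraries. Coefficients of variation were 1.64% to 79.8% in WT and 2.97% to 23.1% in KO for the 7 genes, against medians over all genes tested of 17.3% and 7.69%. The lowest, that of Noxo1 in WT, was smaller than counting error alone gives at its counts of 117 to 132.

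Within the 4 libraries with Xist reads, 2 of each genotype, the difference in mean log2 CPM (KO minus WT) was 1.23 for Nox3, −1.99 for Otop1, 0.35 for Oc90, −0.58 for Noxo1, −0.73 for Slc26a4, 0.22 for Cyba and 0.13 for Otol1. In the single pair without them, KO replicate 1 against WT replicate 3, it was 0.75, −0.24, 0.52, −0.32, −0.30, 0.03 and 0.32 in the same order. Every sign was shared, and the Otop1 difference was mostly that of the libraries with Xist, which include WT replicate 1. When the model held a term for Xist reads, none of the 7 passed and 5 had an unadjusted p under 0.05 (edgeR).

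The genes whose log2 CPM followed each member most closely over the 6 libraries, among 15058 others with a mean of at least 1 CPM, were as follows. For Oc90 they were Tuba1c, Impa1 and Cct7 (Pearson r 0.993 to 0.996), for Otol1 Aptx, Serinc3 and Epx (0.990 to 0.997) and for Otop1 Sox21, Cldn12 and Smpd2 (0.993 to 0.998). For Nox3 they were Dusp12, Rab3gap1 and Arhgap30 (0.995 to 0.998), for Noxo1 Sobp, Pdcd2l and Slc2a1 (0.991 to 0.996), for Cyba Maf, Mir5134 and Kptn (0.998 to 0.999) and for Slc26a4 Gpr19, Mir1982 and Ces1d (0.978 to 0.982). With 6 libraries that differ in composition, high values are common, and 16 genes, for Slc26a4, to 496 genes, for Cyba, had r over 0.95. No member was among the 3 nearest genes of another, and the closest pair within the 7 were Nox3 and Otop1, in opposite directions (r = −0.86), with Nox3 and Cyba at 0.85. These values describe the libraries and were not tested.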

How the data were processed

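The authors deposited read counts per gene for the 6 libraries, whole numbers that had not been normalised. Per the labels' protocols, TRIzol was used for RNA extraction and the TruSeq Stranded mRNA kit for the libraries. Trimmomatic, HISAT2, Cufflinks, HTSeq and the mm10 build are named in the submitters' processing notes. For versions, annotation release and strand setting, the entry is not given in the sources used here. Of the identifiers, 55141 of 55401 were in GENCODE M21.

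The 7 genes and the gene lists were chosen with earlier results of these data known. Genes were kept with filterByExpr (minimum count 10), library sizes were scaled by TMM, and the genotypes were compared with edgeR 4.0.16 (glmQLFit, glmQLFTest, genotype alone, R 4.3.3), adjusted by Benjamini-Hochberg at 0.05. SE is the log2 fold change divided by the root of F, and log2 CPM used a prior count of 2. Levels per kilobase use merged GENCODE exons. Named genes were the 7, list members past the threshold, otherwise up to 2 of each list with the highest mean, and the 3 genes most like each member; others were named after their values were seen. The values of 1 gene in the oxidase list are not reported here. DESeq2 1.42.0 and limma-voom (limma 3.58.1) were alternatives. No 2 libraries had identical counts. The labels do not tie libraries to animals, so p-values measure the spread between these samples, which may be technical. Tested on simulated data for KO against WT with 19687 genes, the edgeR script called 95 of 100 genes changed by 2 and 47 of 100 changed by 1 on the log2 scale. Of 19487 unchanged genes it called 11. The changed genes were drawn from those above a minimum mean level. Both simulated genotypes shared the dispersion of each gene and no library stood apart, unlike in the data.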

Additional observations from a re-analysis of the deposited data

How the results depend on the processing

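Scaling by RLE or upper quartile, no filter on low counts, limma-voom and leaving out mitochondrial, haemoglobin and muscle genes left the 7 genes without a call and 1 gene of the other lists called, and moved the 78 genes called overall to no fewer than 69 and no more than 106. Requiring 1 CPM in 3 libraries gave 2 of the 36 list genes then tested, against 0.475% of all genes. DESeq2 called 1603 genes (8.14% of those tested), 2 of the 7 and 3 of the 40 list genes tested. Its default filtering target, which was chosen after seeing the data, gave 1596 (8.11%), 1 and 3. With a term for Xist reads it was 0 genes overall and 0 of the lists (3185 and 4 at an unadjusted p under 0.05, edgeR). With the replicate block it was 1 gene overall and 0 of the lists. Same-numbered libraries did not deviate together (correlations −0.13, −0.29 and −0.19), and no library correlated best with its own number. Deviations within a genotype are tied to one another, so these values do not decide whether the numbers pair the libraries. Leaving out each library in turn gave 0 to 1814 genes, 0 to 1 of the 7 and 0 to 7 of the lists. Without WT replicate 1 it was 1814 (9.06% of those tested), 0 and 7 of 40. Without WT replicate 2 it was 760 (3.78%), 1 and 3 of 40. Without WT replicate 3 or any KO library it was 0 throughout (2087 to 3364 genes at an unadjusted p under 0.05, edgeR). The cause was not tested. Over 16 alternatives the signs held for Oc90, Otop1, Nox3, Noxo1 and Slc26a4, while those of Otol1 and Cyba changed without WT replicate 1. No scaling moved the median of all genes by as much as 0.1. Counts of 48 to 67 limit the precision of Otop1 in KO.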
